A study of Mus musculus with 3 samples.

Results

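The genes described here are 9 members of the Dock family, Dock1, Dock2, Dock3, Dock4, Dock5, Dock6, Dock8, Dock9 and Dock10. They were chosen around Dock9. That gene was selected on these data for a low TAC share of its 5-methylcytosine (5mC) peaks beside other protein-coding genes. The family members beside Dock9 were listed by name. The peak numbers of Dock9 are therefore a description, and no test of them is possible. A peak was counted for a gene when its midpoint lay between the RefSeq start and end of that gene. The 9 gene bodies held 224 of the 135886 peaks of the Sham list and 195 of the 162107 peaks of the TAC list, and they are 9 of 21900 protein-coding genes in the annotation. Dock11, another gene of the family, was not on that list, for a reason the sources do not give.

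Dock proteins are large guanine nucleotide exchange factors that load the small GTPases Rac and Cdc42 with GTP, through a catalytic domain unlike that of the classical Dbl-type factors. They act in actin remodelling, cell migration, cell fusion and the clearing of dead cells. The DOCK-A and DOCK-B groups work with ELMO partner proteins and act on Rac, DOCK-D proteins are known mainly for Cdc42, and DOCK-C proteins have been linked to both. 5mC in vertebrate DNA lies mostly at CG dinucleotides, is common along gene bodies and is usually low at promoters rich in CG.

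5mC was profiled by methylated DNA immunoprecipitation and sequencing (MeDIP-seq), in which an antibody pulls down methylated fragments. The DNA came from isolated cardiomyocytes of male C57Bl6/J mice aged 8 weeks: a Sham library, a TAC library taken after 1 week of pressure overload (a constriction of the aorta that raises the load on the heart), and an Input library made without antibody, which served only as the peak caller's control. Each group had 1 library, and the labels do not say whether it pooled several mice. There was no spread between replicates, so no p-value is given, and the exact 95% binomial (Clopper-Pearson) intervals printed with ratios cover counting error only.

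Library depth was 12585289 tags in Sham and 14658177 in TAC, with 29.9% and 34.7% of them in peaks, per the file headers. Over all protein-coding gene bodies there were 63499 peaks in Sham and 68011 in TAC, a TAC to Sham ratio of 1.07 (1.06 to 1.08), and the median ratio over genes with at least 10 peaks in both lists together was 1.00. Peak height was read from the order of each list and is called the inferred tag number, given per 10000000 tags of its library; neither labels nor headers state that the order has this meaning. Methylation peaks do not give expression, so the labelled cell type could not be checked against expressed markers. Peaks in marker genes were counted instead: 8 cardiomyocyte markers held 33 Sham and 52 TAC peaks, with 6 of 8 holding any, and 8 immune markers held 18 and 29, with 7 of 8 holding any. Endothelial markers held 47 and 45, smooth muscle markers 19 and 20, and fibroblast markers 9 and 13.

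Promoters are shown first because 2 of the genes had peaks beside an annotated start site. Each window runs from 250 bases before to 50 bases after a RefSeq start site (GRCm38.p6), is printed 5′ to 3′ on the gene's strand, and has every CG, the site at which 5mC is mostly found, in capitals. CG reads the same on both strands, and 94.6% of 32851 such windows hold at least 1, with a median of 7. The first line is the Dock1 window at chr7:134670437-134670736 (plus strand). The other 3 are the annotated Dock9 start windows, all on the minus strand: the upstream one at chr14:121797685-121797984 and the internal ones at chr14:121738880-121739179 and chr14:121698368-121698667.
Dock1: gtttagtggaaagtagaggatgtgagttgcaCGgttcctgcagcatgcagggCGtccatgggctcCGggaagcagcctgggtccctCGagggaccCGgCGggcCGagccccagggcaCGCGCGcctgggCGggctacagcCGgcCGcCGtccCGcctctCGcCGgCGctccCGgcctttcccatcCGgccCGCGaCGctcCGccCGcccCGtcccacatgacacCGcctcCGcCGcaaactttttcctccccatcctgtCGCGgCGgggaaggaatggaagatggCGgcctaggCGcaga
Dock9 upstream start: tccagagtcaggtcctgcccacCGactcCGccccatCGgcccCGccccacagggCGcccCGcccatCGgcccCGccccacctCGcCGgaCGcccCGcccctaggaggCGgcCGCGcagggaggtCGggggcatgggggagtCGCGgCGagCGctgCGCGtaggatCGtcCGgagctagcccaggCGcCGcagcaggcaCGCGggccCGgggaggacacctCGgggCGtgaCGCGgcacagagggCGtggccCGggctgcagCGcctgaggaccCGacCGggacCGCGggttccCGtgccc
Dock9 internal start at 59.0 kb: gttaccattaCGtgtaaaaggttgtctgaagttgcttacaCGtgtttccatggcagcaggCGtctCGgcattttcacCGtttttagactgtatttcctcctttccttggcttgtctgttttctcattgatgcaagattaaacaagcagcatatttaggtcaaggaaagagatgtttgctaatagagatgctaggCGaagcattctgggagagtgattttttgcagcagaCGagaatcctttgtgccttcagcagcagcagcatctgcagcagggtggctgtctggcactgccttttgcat
Dock9 internal start at 99.5 kb: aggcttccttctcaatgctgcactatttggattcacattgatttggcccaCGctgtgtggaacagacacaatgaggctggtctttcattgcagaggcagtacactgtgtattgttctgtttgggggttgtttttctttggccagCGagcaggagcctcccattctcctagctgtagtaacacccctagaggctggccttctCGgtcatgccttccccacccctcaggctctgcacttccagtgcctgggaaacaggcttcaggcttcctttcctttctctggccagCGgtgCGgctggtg

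The Dock1 window holds 34 CG, more than 92.3% of promoter windows do. A Sham peak covered 109 of its bases, with 7 CG, and the overlapping TAC peak covered 24 bases and no CG. That pair of peaks lay wholly upstream of the gene and was not counted in its body. The upstream Dock9 window holds 41 CG, and no peak was near it: the closest were 4.61 kb away in Sham and 8.25 kb away in TAC. The internal Dock9 windows hold 7 and 5 CG. A peak found in the Sham list alone ended 105 bp from the first of these and another began 98 bp from the second, while the nearest TAC peaks were 969 bp and 2.40 kb away. A peak within 1 kb was common, at 17.4% of all windows in Sham and 18.4% in TAC. No Dock9 window was itself covered. Among all promoter windows, 4.89% were covered by a Sham peak and 4.86% by a TAC peak. The other entries, for Dock2, Dock3, Dock4, Dock6, Dock8 and Dock10, were covered in neither library, and Dock5 had no entry.

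Across the 9 genes the TAC to Sham ratio of peak numbers was 0.871 (0.715 to 1.06), and without Dock9 it was 0.964 (0.773 to 1.20), from 169 peaks in Sham and 163 in TAC. Both intervals include 1, and the second also includes the 1.07 of all protein-coding genes. The family ratio depended on the threshold: it was 0.799 (0.650 to 0.982) with thresholds set nearly equal per library depth (11 inferred tags in Sham, 13 in TAC), 0.696 (0.564 to 0.858) with the TAC list reduced by its order to about the Sham number, and 1.04 (0.744 to 1.46) at 20 or more inferred tags per 10000000. Leaving out each gene in turn gave ratios from 0.824, without Dock3, to 0.964, without Dock9. Without both Dock9 and Dock8 the other 7 genes held 134 and 141 peaks, a ratio of 1.05 (0.825 to 1.34). The TAC list held more peaks in 4 genes (Dock2, Dock3, Dock5 and Dock10) and fewer in 5 (Dock1, Dock4, Dock6, Dock8 and Dock9). Dock9 was chosen for this direction. The median ratio was 0.917 over the 9 genes and 1.00 over all protein-coding genes with at least 10 peaks. With the TAC list reduced, Dock2 alone of the 4 stayed higher, at 1.19, while Dock3 stood at 1.00, Dock5 at 0.929 and Dock10 at 0.800. The same reduction took the ratio over all peaks from 1.19 to 0.987. Dock11, outside the 9, held 4 peaks in each list.

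**Figure D1:**
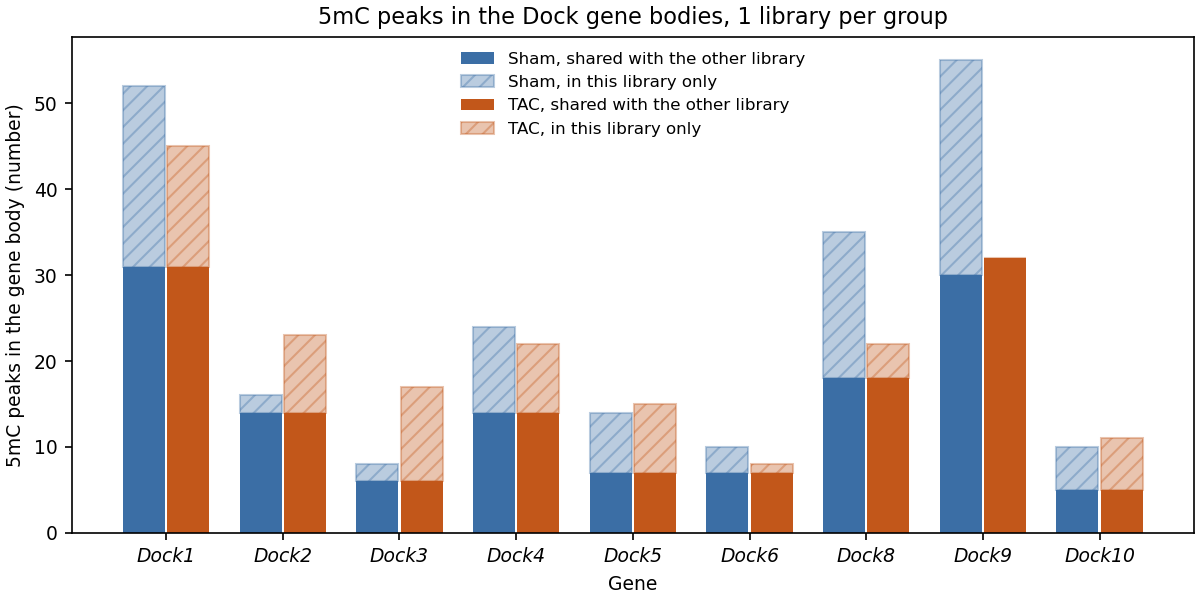
Number of 5mC peaks in each Dock gene body, with Sham bars in blue and TAC bars in orange; solid parts are peaks with at least 1 bp in common with the other list, hatched parts are peaks of that library alone. Dock9 has 25 hatched Sham peaks and no hatched TAC peak, while Dock3 has 2 and 11.

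A peak counted as shared if it had at least 1 bp in common with a peak on the other list, and as library-only if not. A library-only peak is missing from the other list, which does not mean that the other library had no signal there. Over all protein-coding genes, 63.8% of Sham and 59.9% of TAC peaks were shared. Of the Dock peaks the shares were 58.9% and 68.7%, or 60.4% and 62.6% without Dock9. Sham-only peaks numbered 92 and TAC-only peaks 61, a ratio of 0.663 (0.472 to 0.926), which turned to 1.12 (0.625 to 2.04) at 20 or more inferred tags per 10000000 and was 0.324 with the TAC list reduced. Without Dock9 these were 67 and 61, a ratio of 0.910 (0.633 to 1.31), below the 1.19 of all protein-coding genes. That last interval includes 1.19, and the value ran from 0.446 with the TAC list reduced to 1.77 at 20 or more inferred tags.

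The DOCK-A genes Dock1, Dock2 and Dock5 together had 82 peaks in Sham and 83 in TAC, a ratio of 1.01 (0.737 to 1.39). Dock1 (chr7:134670687-135173647), the ELMO-bound Rac activator known from engulfment and myoblast fusion, had 52 peaks in Sham and 45 in TAC, a ratio of 0.865 (0.567 to 1.32). It shared 31 of each, leaving 21 Sham-only and 14 TAC-only peaks spread along the gene. Its strongest region, 175 kb from the 5′ end, was nearly equal in the libraries, with 258 (Sham) and 265 (TAC) inferred tags per 10000000, and was the highest of any Dock region. A region 2.39 kb from the 5′ end stood at 19.1 in Sham and 56.6 in TAC. Over its 31 regions with a peak in both libraries, 15 were higher and 16 lower in TAC.

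Dock2 (chr11:34226815-34783905) is a Rac activator known from the migration of white blood cells. It had 16 peaks in Sham and 23 in TAC, a ratio of 1.44 (0.727 to 2.91), with 14 of each shared, 2 Sham-only and 9 TAC-only. At 20 or more inferred tags per 10000000 the direction turned, with 7 and 6 peaks and a ratio of 0.857. Its strongest region, 72.5 kb from the 5′ end, stood at 126 inferred tags per 10000000 in Sham and 116 in TAC. The 2 peaks nearest the 5′ end, at 6.51 and 22.8 kb, were both TAC-only. Dock5 (chr14:67751928-67933572), a close relative of Dock1 that also acts on Rac, held 14 and 15 peaks, a ratio of 1.07 (0.482 to 2.40). Its library-only peaks, 7 Sham and 8 TAC, were evenly divided in number but not in place, since 6 of the TAC-only peaks formed a pair of clusters near the upper end of the gene. Of its 7 regions with peaks in both libraries 5 were higher in TAC, including the strongest, at 97.7 inferred tags per 10000000 in Sham and 150 in TAC.

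The DOCK-B genes Dock3 and Dock4 had 32 peaks in Sham and 39 in TAC, a ratio of 1.22 (0.744 to 2.01). Dock3 (chr9:106892825-107232330), a Rac activator best known from neurons, had 8 peaks in Sham and 17 in TAC, the highest ratio of the family at 2.12 (0.869 to 5.69). Of these, 6 of each were shared, leaving 2 Sham-only and 11 TAC-only peaks. Most of those 11 were low, with a median of 13 inferred tags where the TAC threshold was 12, and the highest, 118 kb from the 5′ end, stood at 24.6 inferred tags per 10000000. With the nearly equal thresholds the Dock3 ratio was 1.38, and with the TAC list reduced it was 1.00, so its excess of TAC peaks depended on the threshold. Dock4 (chr12:40445957-40846874), which acts on Rac in cell migration, held 24 and 22 peaks, a ratio of 0.917 (0.490 to 1.71), with 10 Sham-only and 8 TAC-only. With the gene cut into 5 equal parts, the part nearest the 5′ end of Dock4 had 8 Sham and 4 TAC peaks, and that nearest the 3′ end 5 and 7.

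The DOCK-C genes Dock6 and Dock8 had 45 peaks in Sham and 30 in TAC, a ratio of 0.667 (0.406 to 1.08), with 20 Sham-only and 5 TAC-only peaks. Dock6 (chr9:21800180-21852718), which acts on Rac and Cdc42, is the shortest of the genes at 52.5 kb. It was densely covered, with 19.0 Sham and 15.2 TAC peaks per 100 kb. It held 10 and 8 peaks, a ratio of 0.800 (0.274 to 2.25), of which 3 and 1 were library-only.

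Dock8 (chr19:24999321-25202432) is a Cdc42 activator whose loss causes an immune deficiency in humans. It had 35 peaks in Sham and 22 in TAC, a ratio of 0.629 (0.351 to 1.10), with 18 of each shared, 17 Sham-only and 4 TAC-only. An unbroken run of 7 Sham-only peaks spanned 24.3 kb, from 120 to 144 kb from the 5′ end, in which neither library had another peak. Those 7 peaks were all low, with 11 to 16 inferred tags each. None of the 17 Sham-only peaks of Dock8 reached 20 inferred tags per 10000000. At that threshold Dock8 had 7 peaks in Sham and 10 in TAC, a ratio of 1.43 (0.491 to 4.42), so the direction of the Dock8 difference turned with the threshold. Where both libraries had peaks, 7 of 18 regions were higher and 11 lower in TAC. The strongest was almost level, at 86.6 inferred tags per 10000000 in Sham and 83.9 in TAC. Dock2 and Dock8 are both known from immune cells, and the immune marker genes held 18 and 29 peaks; their part in the values of these genes was not tested.

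The DOCK-D genes Dock9 and Dock10 had 65 peaks in Sham and 43 in TAC, a ratio of 0.662 (0.439 to 0.987), and differed from each other. Dock9 (chr14:121538365-121797900), a Cdc42 activator also known as zizimin, had 55 peaks in Sham and 32 in TAC, a ratio of 0.582 (0.364 to 0.916). Every one of the 32 TAC peaks overlapped a Sham peak, whereas 25 of the 55 Sham peaks overlapped no TAC peak. Dock9 had the highest density of Sham peaks among the 9 genes, 21.2 per 100 kb, and 12.3 in TAC. The base pairs under its peaks numbered 45050 in Sham and 24017 in TAC.

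The Sham-only peaks of Dock9 lay along the whole gene rather than in 1 stretch. Cut into 5 equal parts from the 5′ to the 3′ end, the gene held 12, 11, 10, 11 and 11 Sham peaks and 7, 7, 7, 7 and 4 TAC peaks, and the Sham-only peaks divided as 6, 4, 4, 4 and 7. They had 10 to 41 inferred tags, with a median of 16, and 15 of the 25 had the list's commonest width of 501 bp, as did 59.6% of all Sham peaks. The nearest TAC peak was 0.430 to 11.6 kb away, with a median of 2.06 kb, and for 8 of them it was within 1 kb. Of the 25, 7 reached 20 inferred tags per 10000000 in Sham, unlike any in Dock8. The highest of these, 117 kb from the 5′ end, stood at 32.6, and the next, at 181 kb, at 31.8.

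**Figure D2:**
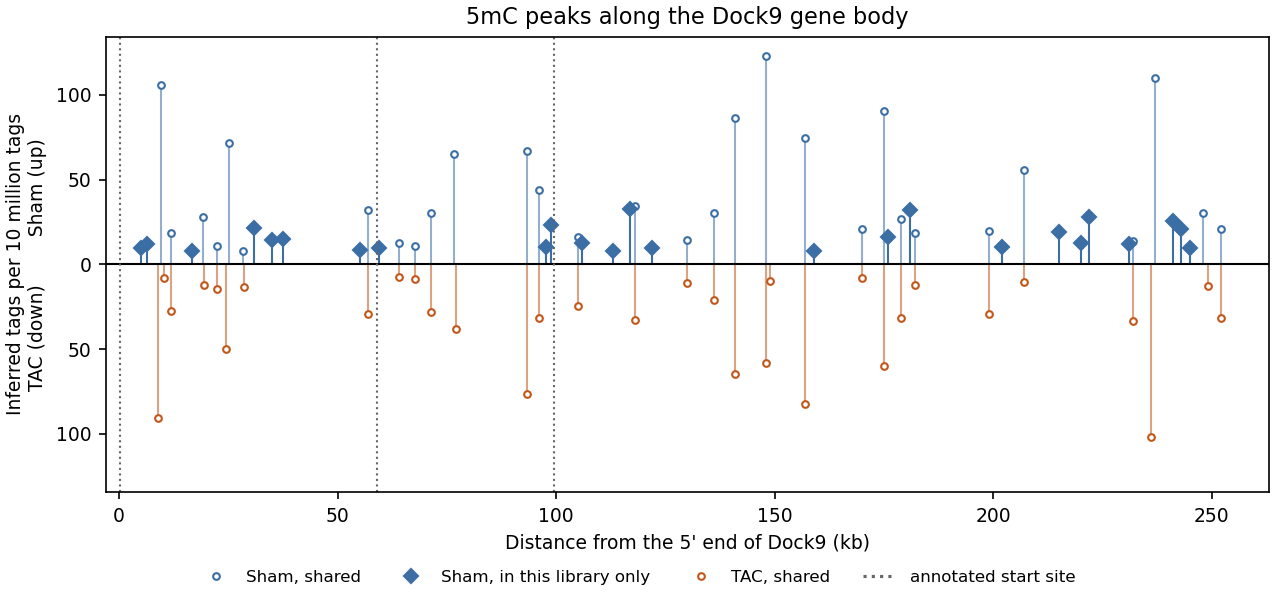
Peaks along the Dock9 gene body, by distance from its 5′ end in kb, with the inferred tags per 10000000 of each peak upward for Sham and downward for TAC; filled diamonds are library-only peaks, open circles shared peaks, and dotted lines the annotated start sites. The 25 Sham-only peaks reach up to 32.6, and there is no TAC-only peak.

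The shared regions of Dock9 were lower in TAC more often than higher. Their heights come from the same lists on which Dock9 was chosen, so this is a description and no separate support. Of 30 regions with a peak in both libraries 20 were lower and 10 higher in TAC, with a median TAC to Sham ratio of inferred tags of 0.860 and a range of 0.184 to 2.47. In the region 207 kb from the 5′ end, inferred tags per 10000000 were 55.6 in Sham and 10.2 in TAC, the lowest ratio. In the strongest Sham region, at 148 kb, they were 123 and 67.5, the TAC value being the sum of 2 peaks. Against that, the region at 232 kb stood at 13.5 in Sham and 33.4 in TAC. Over all protein-coding genes 48.8% of 40328 such regions were lower in TAC, with a median ratio of 1.01. Over the other 8 Dock genes 48.0% of 102 were lower, with a median of 1.02.

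Dock10 (chr1:80501068-80758765), a DOCK-D relative known from lymphocytes, did not share the Dock9 pattern. It had 10 peaks in Sham and 11 in TAC, a ratio of 1.10 (0.424 to 2.89), with 5 and 6 library-only. All 5 of its regions with peaks in both libraries were higher in TAC, with a median ratio of inferred tags of 2.36. The region 141 kb from the 5′ end stood at 14.3 in Sham and 34.8 in TAC per 10000000 tags. None of its Sham peaks reached 20 inferred tags per 10000000.

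**Figure D3:**
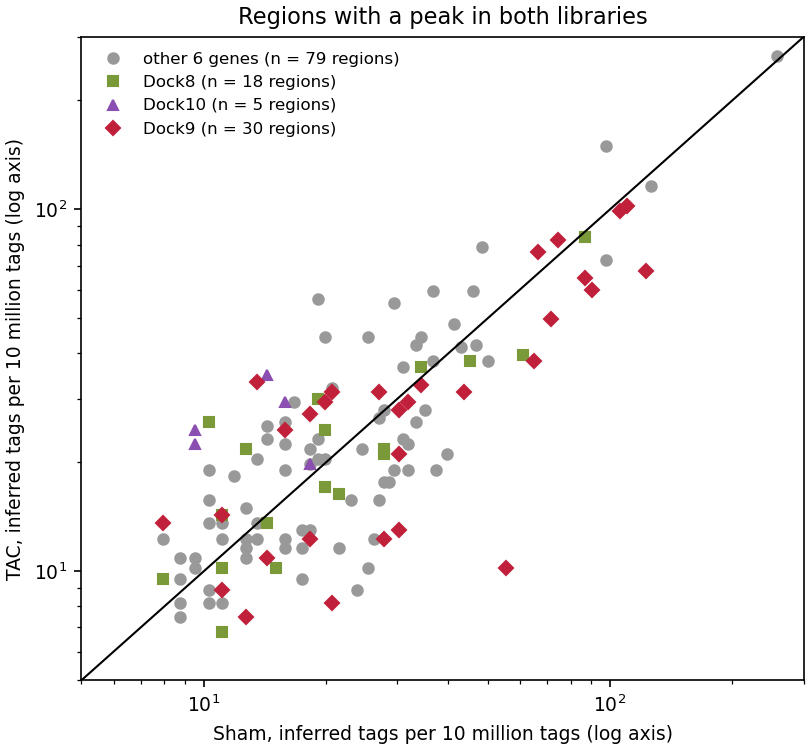
Inferred tags, scaled to 10000000 tags, with TAC on the vertical and Sham on the horizontal log axis, for the 132 regions of the Dock genes with a peak in both libraries; the line marks equal values. Most Dock9 points (red diamonds, 20 of 30) lie below the line and all 5 Dock10 points (purple triangles) lie above it.

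**Figure D4:**
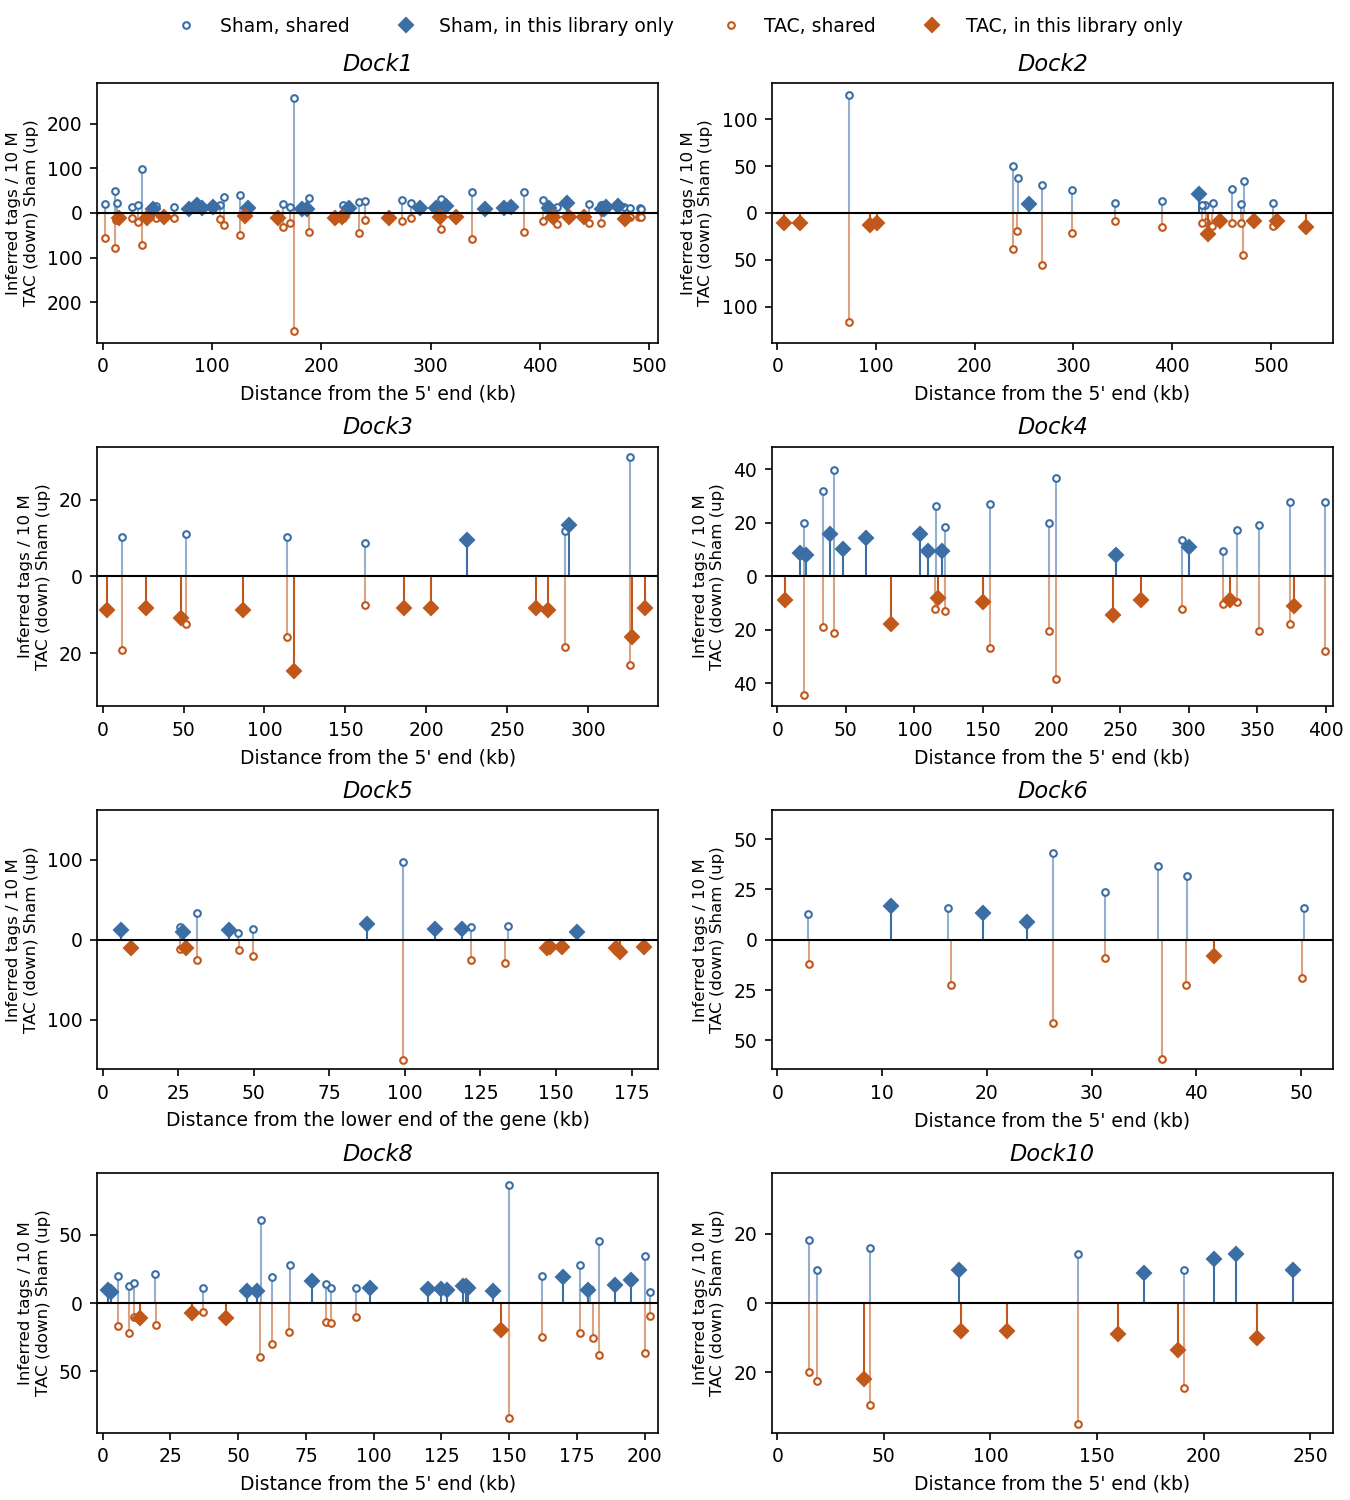
Peaks along the other 8 Dock gene bodies, drawn as for Dock9 with a scale of its own in each panel; Dock5 is drawn from its lower coordinate because its strand is not in the tables used. The run of 7 low Sham-only peaks in Dock8 lies between 120 and 144 kb, and the 11 TAC-only peaks of Dock3 are spread over the gene.

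A cluster was a run of at least 3 library-only peaks of 1 library with neighbours at most 20 kb apart, interrupted by no library-only peak of the other. The 9 genes held 12 Sham-only and 3 TAC-only clusters. Dock9 had 4 Sham-only clusters, of 8, 3, 6 and 8 peaks, which took in all 25 of its Sham-only peaks. Dock1 and Dock8 had 3 each, and Dock4 and Dock6 had 1 each. The TAC-only clusters were 2 in Dock5 and 1 in Dock8. With no peak of any kind allowed inside a cluster, 8 Sham-only clusters were left, in Dock1, Dock8 and Dock9, and 2 TAC-only clusters, both in Dock5. At least 1 Sham-only cluster was present in 5 of the 9 genes, beside 27.7% of 3597 protein-coding genes with at least 10 peaks, and at least 1 TAC-only cluster in 2 of 9, beside 29.5%. Dock9 is among the 5 and was chosen for its low TAC share, so nothing is read from its clusters. The others among the 5 were Dock1, Dock4, Dock6 and Dock8. Gene length was not matched in that background.

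Among the same 3597 genes, 10.3% had a TAC to Sham ratio of at most 1/1.5, and 2 of the 9 Dock genes did, Dock8 and Dock9. A ratio of at least 1.5 was found for 17.8% of genes and for 1 Dock gene, Dock3. Dock9 was chosen on this contrast, so nothing is read from its call or its rank. A lower ratio than that of Dock9 was found for 4.42% of genes, and a lower ratio than that of Dock8 for 6.28%. Of 1258 genes with at least 10 library-only peaks, 0.159% had all of them in Sham, which were Dock9 and Fbln1 (the gene of an extracellular matrix protein, 12 Sham-only and no TAC-only peaks). For Dock9 this rests on the same peak numbers by which it was chosen, so nothing is read from it. All were in TAC for 0.795% of these genes, and for none of the 8 Dock genes with that many.

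In the 500 kb on either side of the genes, there were 628 peaks in Sham and 718 in TAC, a ratio of 1.14 (1.03 to 1.27), with 202 Sham-only and 291 TAC-only peaks, a ratio of 1.44. Over all peaks of the lists these ratios were 1.19 and 1.56. The flank ratio turned to 0.987 at 20 or more inferred tags per 10000000 and to 0.955 with the TAC list reduced. The flanks of Dock9 held 107 and 97 peaks, a ratio of 0.907 (0.682 to 1.20), with 37 Sham-only and 27 TAC-only; TAC-only peaks, missing from the gene, were thus listed on both sides of it. In the nearest 100 kb on both sides of Dock9 the counts were 21 and 24. Further out, in steps of 100 kb, they were 21 and 17, 26 and 21, 13 and 13, and 26 and 22. Dock8 had 105 and 109 flank peaks, a ratio of 1.04 (0.787 to 1.37). The highest flank ratios were those of Dock10, at 1.72 (1.07 to 2.83), and Dock4, at 1.67 (1.08 to 2.59). For the other 5 genes they ran from 1.03 at Dock6 to 1.26 at Dock1. The intervals of body and flank overlapped for each of the 9 genes, and the difference between them was not tested.

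**Figure D5:**
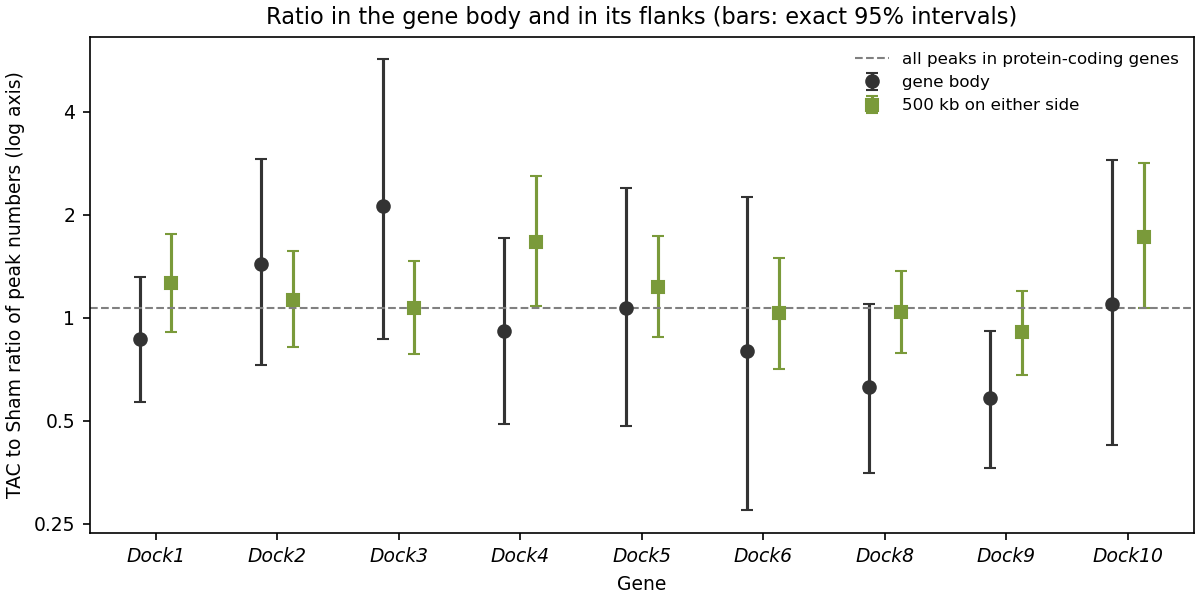
TAC to Sham ratio of peak numbers, on a log axis, in each Dock gene body (black circles) and in the 500 kb on either side (green squares), with exact 95% intervals for counting error; the dashed line is the ratio of all peaks in protein-coding genes, 1.07. The Dock9 body, at 0.582, is the only body whose interval lies wholly below 1. That gene was chosen on these data for its low TAC share of peaks, so nothing is read from its interval.

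Dock1, Dock2, Dock6 and Dock8 each contain another protein-coding gene, and their peaks were counted there too. Insyn2a within Dock1 held 4 Sham and 6 TAC peaks, Insyn2b within Dock2 6 and 7, Angptl8 within Dock6 1 of each, and Ndufb4b within Dock8 none. No other protein-coding gene overlapped Dock9.

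Other genes of the pathway were counted in the same way. The 3 ELMO genes, partners of DOCK-A and DOCK-B proteins, held 35 Sham and 34 TAC peaks, 31 of each in Elmo1. The 8 adaptor and receptor genes upstream of Dock proteins held 29 and 36, and 1 of the 3 with at least 10 peaks, the adaptor gene Nck2 (5 and 8), was past 1.5. The 14 effector genes held 53 and 53, with 1 of the 4 that had at least 10 peaks, the kinase gene Pak4 (6 and 4), at 0.667. The 15 Dbl-type exchange factors for Rac and Cdc42 held 288 and 273 peaks, a ratio of 0.948 (0.800 to 1.12), with 100 Sham-only and 82 TAC-only. Of the 13 with at least 10 peaks, none had a ratio of at most 1/1.5 and 1, Fgd4 (6 and 9), was at 1.5; among all 3597 genes these shares were 10.3% and 17.8%.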

How the data were processed

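5mC peaks of 1 Sham and 1 TAC library were used; the Input library entered only the authors' peak calling. The submitters' processing notes name BWA 0.7.4-r385, Picard and, for the peaks, HOMER 4.5, with build mm10. Each library had its peaks called against input, with a peak size of 500 bp, at least 4-fold over input, a p-value of 0.0001 and thresholds of 11 (Sham) and 12 (TAC) tags, per the file headers. The deposited score column holds 1 for every peak and was not used as a value. Peak height was inferred from blocks in the order of each list, 1 tag less per block down to 8. The sums come to 99.3% of the tags in peaks of either header, but 3.25% of the peaks in each list fall below the header threshold.

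Genes were RefSeq gene bodies of GRCm38, the assembly that mm10 names, and promoter sequences and strands came from RefSeq (GRCm38.p6). Exons, introns and sequences under peaks were not analysed here. Members and gene lists were chosen with earlier results of these data known. Named genes were all members, Dock11, genes overlapping a member, and pathway genes (not cell type markers) with at least 10 peaks and a ratio of at least 1.5 or at most 1/1.5; Fbln1, Elmo1 and the genes under other observations were named after their values were seen. Clusters allowed shared peaks, but no library-only peak of the other library, between their members. Some planned results are not reported here. Alternatives covered peak assignment, sharing, thresholds, base pairs, flank size and cluster gaps. Counting and intervals (Python 3.11.15, pandas 2.3.3, SciPy 1.17.1, matplotlib 3.10.9) were tested on simulated data.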

Additional observations from a re-analysis of the deposited data

How the results depend on the processing

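No paired analysis was possible because each group has 1 library and no test was made. The Dock9 ratio stayed between 0.509 and 0.741 under its 6 alternatives, and Dock9 kept more Sham-only than TAC-only peaks under every setting run, with 11 and 4 at 20 or more inferred tags per 10000000, 24 and 1 at a nearly equal depth-scaled threshold and 28 and 0 with TAC reduced by list order. At 20 or more inferred tags per 10000000 the Dock9 interval, 0.394 to 1.37, included 1. Several other results moved or turned with the threshold. Dock1, Dock2, Dock3, Dock4, Dock6 and Dock10 stayed within their counting intervals at every threshold that gave a ratio. Of these, Dock2 and Dock10 turned in direction. At 20 or more inferred tags per 10000000 the ratio without Dock9 was 1.22, the library-only ratio turned to 1.12 (1.77 without Dock9), the flank ratio turned to 0.987, Dock2 turned to 0.857, Dock8 turned to 1.43 and Dock5 stood at 2.50; Dock10 gave no ratio, having no Sham peak left. With TAC reduced by list order the family ratio was 0.696 (0.757 without Dock9), the library-only ratio 0.324 (0.446 without Dock9) and the flank ratio turned to 0.955; Dock5 turned to 0.929 and Dock10 to 0.800, the latter also 0.900 at the nearly equal threshold. With gaps of up to 40 kb there were 9 Sham-only and 5 TAC-only clusters, and with gaps of up to 10 kb 8 and 2. The cause was not tested. Over all peaks the ratio was 1.19 at 20 or more inferred tags per 10000000, 0.987 with TAC reduced and 1.09 at the nearly equal threshold. Peak assignment, sharing rule, flank size and base pairs moved no family or gene result beyond its counting interval. Depth limits genes with few peaks: the intervals of Dock2, Dock3, Dock5, Dock6 and Dock10 span a 4-fold range or more. Animals, batches and library preparation cannot be told apart from the groups.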

Other observations

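Of the 15 Dbl-type exchange factor genes, 5 had more Sham-only than TAC-only peaks, 8 had more TAC-only peaks and 2 had equal numbers. Over all protein-coding genes there were 22958 Sham-only and 27273 TAC-only peaks. The share of all genes in each direction is not given here, so nothing is read from this split. The examples here were chosen after their values were seen and were not checked at other thresholds. Among the 5, Trio had 35 peaks in Sham and 24 in TAC, of which 14 and 3 were library-only. Library-only peaks numbered 10 and 1 in Prex1, 24 and 11 in Tiam1, 9 and 2 in Tiam2, and 7 and 2 in Vav2. Among the 8, Kalrn, a close relative of Trio, had 58 and 67 peaks, of which 14 and 23 were library-only. Library-only peaks numbered 5 and 9 in Vav3, 5 and 8 in Prex2, 2 and 5 in Fgd4, and 0 and 3 in Vav1.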
